A study of Homo sapiens with 9 samples.

Results

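The genes described here are 10 long noncoding RNAs of SKMEL28 human melanoma cells, chosen by name out of the 48162 genes counted. The choice used no threshold on their values, but it was made with earlier results of these data known. Of these, 8 are host genes of small nucleolar RNAs (snoRNAs), GAS5, SNHG1, SNHG5, SNHG6, SNHG8, SNHG12, SNHG15 and ZFAS1, and 2 are RNAs of the nucleus, NEAT1 and MALAT1. All 10 passed the filter on low counts. RNA sequencing was performed on cells that carried a lentiviral short hairpin against GFP as the control (shCont), against p16 (shp16), or against p16 and ATR together (shp16+shATR), with 3 libraries in each group. Cells of all groups grew in DMEM with 5% FBS and were selected with 1 ug/ml puromycin for 3 days. The study describes such libraries as technical replicates of 1 experiment, so the p-values measure the spread between these libraries and not between separate infections. The hairpin against p16 targets CDKN2A, a gene that also encodes p14ARF, and which of the study's ATR hairpins was sequenced is not given in the sources used here.

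A snoRNA host gene is transcribed and spliced like any other gene, but its introns release the small RNAs that guide chemical modification of ribosomal RNA, while the spliced exons often encode no protein. The spliced RNAs of GAS5 and several relatives begin with a run of pyrimidines, the 5′ terminal oligopyrimidine (5′TOP) start they share with ribosomal protein mRNAs, and since ribosomes engage them and soon meet a stop codon, nonsense-mediated decay keeps their levels low. The translation of 5′TOP RNAs is a classic output of mTORC1, the kinase complex that the study places downstream of ATR. NEAT1 is the architectural RNA of paraspeckles, and its neighbour MALAT1 is retained in nuclear speckles, where splicing factors gather.

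The 5′ starts are shown because the 5′TOP run is the sequence feature that sets many snoRNA hosts apart. Each is the first 30 bases of 1 annotated transcript (GENCODE v29, build GRCh38, read on the gene's own strand), with capitals marking a run that opens with C and goes on with at least 4 letters, each C or T:
GAS5-210, chromosome 1, minus strand: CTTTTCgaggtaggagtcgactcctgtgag
SNHG5-207, chromosome 6, minus strand: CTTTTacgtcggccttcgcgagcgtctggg
SNHG8-205, chromosome 4, plus strand: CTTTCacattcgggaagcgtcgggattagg
SNHG12-209, chromosome 1, minus strand: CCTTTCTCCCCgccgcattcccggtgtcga
ZFAS1-204, chromosome 20, plus strand: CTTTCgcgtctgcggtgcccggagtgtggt
SNHG1-209, chromosome 11, minus strand: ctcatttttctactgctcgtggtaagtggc
SNHG15-202, chromosome 7, minus strand: agacctgtactccgtactccgtacttcgta
NEAT1-202, chromosome 11, plus strand: ggagttagcgacagggagggatgcgcgcct
MALAT1-202, chromosome 11, plus strand: gtaaaggactggggccccgcaactggcctc

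Such a start was annotated for 6 of 29 GAS5 transcripts, 4 of 17 of SNHG12, 3 of 23 of SNHG5, 3 of 10 of ZFAS1, 3 of 5 of SNHG6, 1 of 5 of SNHG8 and 1 of 25 of SNHG1. It was found at none of 10 SNHG15, 8 NEAT1 or 17 MALAT1 transcripts. Over all 206694 transcripts of the annotation 2.41% began this way, and over 83874 noncoding transcripts 2.55% did. Only the first base of the transcript's own strand was searched, and annotated starts need not be those used in these cells. For GAS5, SNHG5, SNHG8, SNHG12 and ZFAS1 the printed start is the one with such a run that the largest number of transcripts share, which for SNHG12 is 2 of the 4 and for ZFAS1 2 of the 3. The other starts are those of the transcript whose length the count table uses, and no start is printed for SNHG6.

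In the coordinates of the count table, which are those of GRCh37, GAS5 (ENSG00000234741) lies at chr1:173833038-173838020 and SNHG12 (ENSG00000197989) at chr1:28905050-28909495, both on the minus strand. SNHG1 (ENSG00000255717) is at chr11:62619460-62623386, SNHG5 (ENSG00000203875) at chr6:86370710-86388451 and SNHG15 (ENSG00000232956) at chr7:45022622-45026560, all minus. On the plus strand are SNHG8 (ENSG00000269893) at chr4:119199864-119200978, ZFAS1 (ENSG00000177410) at chr20:47894715-47905797, NEAT1 (ENSG00000245532) at chr11:65190245-65213011 and MALAT1 (ENSG00000251562) at chr11:65265233-65273940. SNHG6 (ENSG00000245910) is on chromosome 8. NEAT1 and MALAT1 have the same orientation, with 52221 bases between them. The snoRNAs themselves could not be followed: the table holds 13 rows named SNORD or SNORA, only 1 of them inside a gene described here, SNORD87 within SNHG6, and it had 0 counts in every library.

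Library totals lay between 17314662 and 23588174 counts, and values below are TMM-normalized CPM, counts scaled to a common library total, unless stated. The libraries shCont 1 and shp16 1 stood apart from the other 2 of their groups, with a chi-square per gene of 68.5 and 83.4 for shCont 1 and of 37.9 and 37.2 for shp16 1, against 1.94 to 9.66 for the other pairs within groups. The fold changes and calls of the 10 genes are therefore also given without these 2 libraries, a choice made after seeing the data. For other genes the counts and changed calls without them are given. Levels, their order, overlaps of groups, spreads and likeness rest on all 9 libraries. ATR was lower in shp16+shATR than in shp16 (40.3 ± 0.637 against 87.5 ± 5.32 CPM, SD, n = 3, log2 fold change -1.12, adjusted p = 0.0128 by edgeR), whereas CDKN2A was 90.5 ± 11.2 in shp16 against 126 ± 31.7 in shCont, with an adjusted p of 0.0723. Without the 2 libraries the fold changes were -1.07 for ATR (adjusted p = 3.08e-10) and -0.16 for CDKN2A (adjusted p = 0.0817). In shp16+shATR against shCont, CDKN2A was lower (log2 fold change -0.57, adjusted p = 0.0263 by edgeR), also without the 2 libraries (-0.35, adjusted p = 0.000128). All 8 melanoma markers had counts in each group. They summed to 13500 to 14670 CPM in shCont, 7288 to 13350 in shp16 and 10750 to 13240 in shp16+shATR. MITF lay between 10651 and 15886 counts over all libraries. PMEL had 161646 to 226991 counts in shCont, 62733 to 165299 in shp16 and 122930 to 187751 in shp16+shATR. Of 5 keratinocyte markers, KRT5 and KRT1 had 0 counts in every shCont library and 7 to 207 in the libraries with the p16 hairpin. KRT14 had at most 3 counts in shCont against 22 to 57. TP63 had at most 1 count in shCont, 2 to 7 in shp16 and 1 to 2 in shp16+shATR. KRT10 made up most of the list in shCont, at 411 to 730 counts, with 415 to 736 in shp16 and 468 to 772 in shp16+shATR. The list's summed level was 20.7 to 30.99 CPM in the control group, 29.4 to 51.2 with the p16 hairpin alone and 30.01 to 42.2 with both. The 6 fibroblast markers summed to 26.1 to 48.1 CPM over all groups and the 6 blood cell markers to 0.173 to 1.02. Among fibroblast markers, LUM had 501 to 947 counts over all libraries. COL1A2 had 0 to 7 counts in shCont, 8 to 22 in shp16 and 11 to 19 in shp16+shATR. In the same order COL3A1 had 0 to 3, 2 to 14 and 4 to 16, and COL1A1 had 0 to 11, 5 to 31 and 2 to 23. The part of these markers in the results was not tested. In bulk RNA, fewer cells of a type and less RNA per cell cannot be told apart.

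Levels between genes can be compared only per length, as the deposited FPKM. In shCont cells ZFAS1 was the highest, at a mean of 169 FPKM, and its 3 libraries (148 to 207) did not overlap those of SNHG6, next at 88.3 FPKM. SNHG6, GAS5 (82.7) and MALAT1 (79.1, between 16.4 and 117) followed with overlapping libraries. NEAT1 had a mean of 37.9 FPKM, SNHG5 24.6 and SNHG8 24.5, and these neighbours in the order overlapped too. SNHG1 (14.97), SNHG12 (12.1) and SNHG15 (6.43) closed the order, each apart from the next. In shp16+shATR cells the order opened with MALAT1 at 148 FPKM (137 to 164), apart from ZFAS1 at 104 (98.1 to 113), and NEAT1 at 60.6 lay above GAS5 at 52.4 without overlap. These FPKM rest on 1 length per gene. For GAS5 (1698 bases), SNHG1 (2768 bases) and SNHG12 (1903 bases) it is that of a transcript with a retained intron. The median annotated transcript of these genes has 688, 748 and 1090 bases. For SNHG15 the length is 3116 bases, against a median of 842. The hosts' levels and their order therefore depend on which length is right. For NEAT1 the length is that of the 22743-base form, and the annotation also holds shorter forms, with a median of 3147 bases.

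Together the 8 hosts took 0.0230% to 0.0603% of a library's counts, and NEAT1 with MALAT1 0.0643% to 0.286%. The ratio of host counts to counts of the 2 nuclear RNAs was 0.938 in shCont 1 and 0.228 in each of shCont 2 and 3. It was 0.153, 0.253 and 0.202 in the shp16 libraries, and 0.132, 0.145 and 0.105 in the shp16+shATR libraries. The ratio was thus lower in each shp16+shATR library than in any other, and highest in shCont 1.

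**Figure D1:**
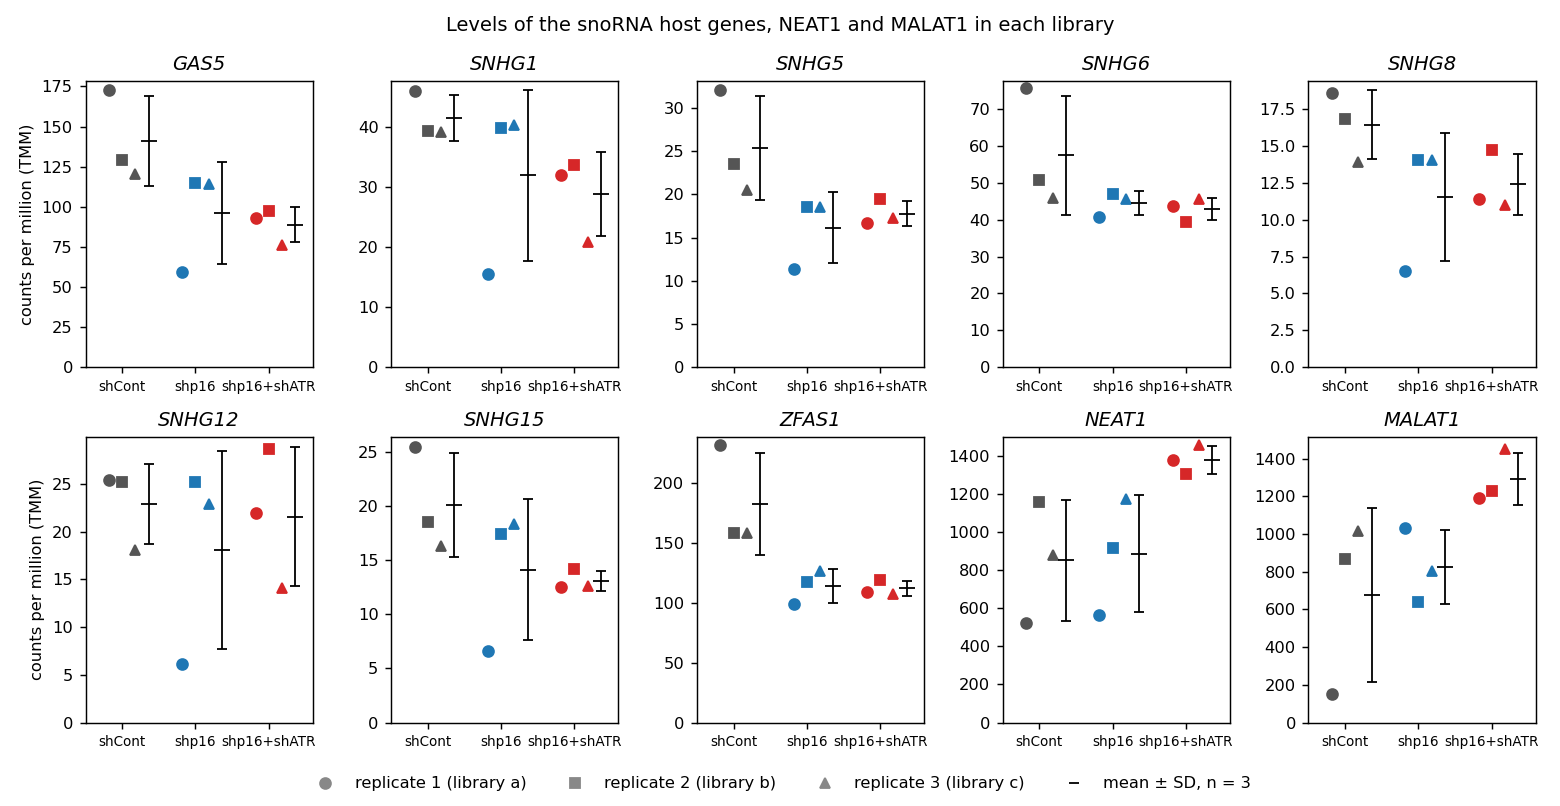
TMM-normalized CPM of each gene (vertical axes, linear from 0) in the 3 libraries of shCont, shp16 and shp16+shATR, with the mean ± SD (n = 3) in black; a, b and c are the names of the shp16+shATR libraries in the count table. Most hosts have their lowest value in shp16 replicate 1, MALAT1 has its lowest value in shCont replicate 1 (149 CPM), and the 3 shp16+shATR values of NEAT1 and MALAT1 lie above the 6 others.

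GAS5, the host of a series of box C/D snoRNAs and named for its accumulation in growth-arrested cells, had 173, 129 and 120 CPM in shCont, 59.3, 115 and 114 in shp16, and 92.9, 97.5 and 76.2 in shp16+shATR. The control libraries were the highest, without overlap with either other group, and shp16 1 was the lowest of all 9. ZFAS1, transcribed from the 5′ side of ZNFX1 and host of box C/D snoRNAs, had 232, 158 and 158 CPM in shCont, 98.7, 117 and 127 in shp16, and 109, 119 and 107 in shp16+shATR. Both knockdown groups lay below the controls without overlap and overlapped each other. SNHG5, also a host of box C/D snoRNAs, had 32.1, 23.6 and 20.5 CPM in shCont, 11.4, 18.5 and 18.6 in shp16, and 16.7, 19.5 and 17.2 in shp16+shATR. As with ZFAS1, the controls were above both other groups without overlap.

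SNHG1, host of a cluster of box C/D snoRNAs beside SLC3A2, had 45.9, 39.3 and 39.2 CPM in shCont, 15.5, 39.9 and 40.3 in shp16, and 32.0, 33.7 and 20.9 in shp16+shATR. Apart from shp16 1, the shp16 libraries were at the control level, and those with the ATR hairpin were below both. SNHG15 had 25.5, 18.5 and 16.3 CPM in shCont, 6.65, 17.5 and 18.3 in shp16, and 12.5, 14.2 and 12.6 in shp16+shATR. Here too the shp16+shATR libraries were below the controls and below shp16 2 and 3. SNHG6 had 75.9, 50.7 and 45.9 CPM in shCont, 40.8, 47.0 and 45.6 in shp16, and 43.7, 39.5 and 45.6 in shp16+shATR. Apart from shCont 1, its libraries lay between 39.5 and 50.7 CPM.

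SNHG8 had 18.6, 16.9 and 13.9 CPM in shCont, 6.54, 14.08 and 14.04 in shp16, and 11.4, 14.8 and 11.0 in shp16+shATR. The 3 groups overlapped. SNHG12 had 25.5, 25.2 and 18.1 CPM in shCont, 6.18, 25.2 and 23.0 in shp16, and 21.97, 28.7 and 14.1 in shp16+shATR. Here the highest value came from shp16+shATR and the lowest from shp16 1, with a spread of 57.4% of the mean in shp16 and 33.8% in shp16+shATR.

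NEAT1 had 521, 1156 and 879 CPM in shCont, 566, 917 and 1176 in shp16, and 1377, 1306 and 1455 in shp16+shATR. MALAT1 had 149, 868 and 1014 CPM in shCont, 1031, 641 and 803 in shp16, and 1193, 1230 and 1452 in shp16+shATR. For both, all libraries with the ATR hairpin were above all others, and shCont and shp16 overlapped.

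The spread within groups was wide. The median coefficient of variation of the 10 genes was 23.5% over the controls, 33.8% over the shp16 libraries and 9.59% over those of shp16+shATR, and over all 15776 genes tested it was 19.1%, 11.2% and 7.70%. In shCont 1 every host was above the mean of the other 2 libraries, by 1.17-fold for SNHG1 and SNHG12 up to 1.57-fold for SNHG6, while NEAT1 was 1.95-fold and MALAT1 6.32-fold lower. In shp16 1 every host was below the other 2 libraries, by 1.14-fold for SNHG6, 1.93-fold for GAS5, 2.58-fold for SNHG1 and 3.90-fold for SNHG12, NEAT1 was 1.85-fold lower and MALAT1 1.43-fold higher. The 2 libraries therefore moved the hosts in opposite directions.

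**Figure D2:**
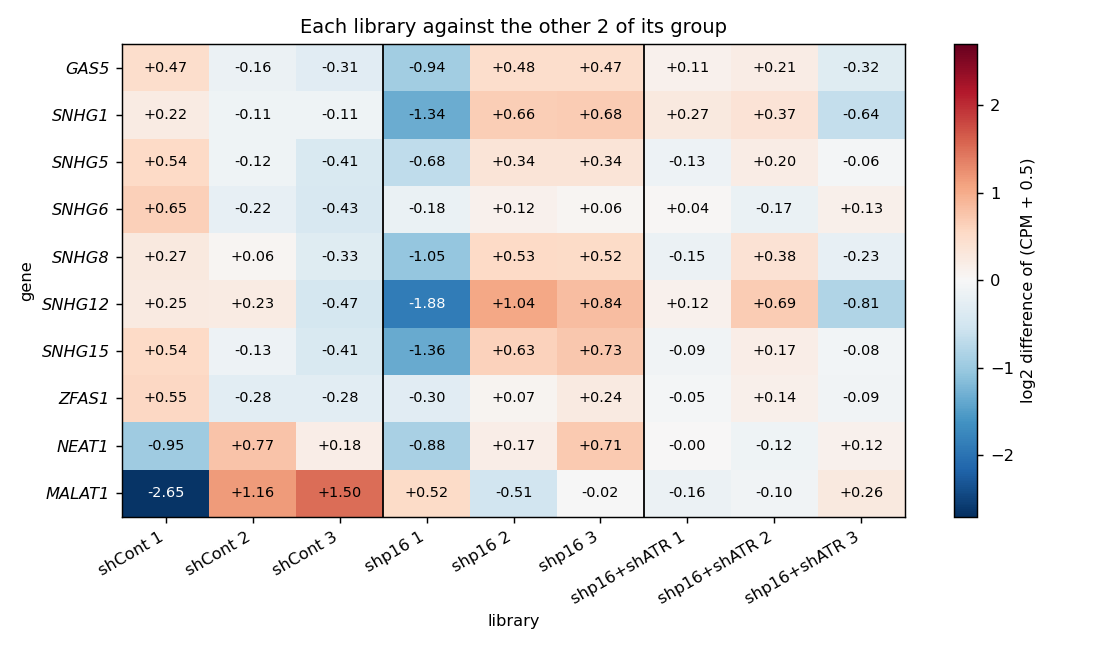
Difference of each library from the mean of the other 2 of its group, on the log2(CPM + 0.5) scale, for the 10 genes (rows) in the 9 libraries (columns), with the value in each cell. The 8 hosts are above 0 in shCont 1 and below 0 in shp16 1, and MALAT1 in shCont 1 has the largest difference, -2.65.

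The other gene groups, on the same scale, did not move alike in the libraries that stood apart. The 8 hosts had a median difference of 0.50 in shCont 1 and -1.0 in shp16 1. Among 15 other noncoding snoRNA hosts the medians were 0.43 and -0.62, with 12 above in shCont 1 and 14 below in shp16 1. Among 32 protein-coding snoRNA hosts, which include ribosomal protein and translation factor genes, they were 0.57 and 0.17, with 27 above in shCont 1 and 25 above in shp16 1. The medians of noncoding and protein-coding hosts thus had opposite signs in shp16 1, a difference that 1 library does not allow to be tested. The 14 factors of nonsense-mediated decay had medians of 0.01 and 0.03, and the 8 core proteins of snoRNA-protein particles 0.49 and 0.03.

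Differences in shCont 1 also varied with gene length. The median difference over all genes tested was 0.06 up to 1000 bases, 0.33 for lengths from 1000 to 2000 bases, 0.17 up to 3000, -0.08 up to 5000, -0.35 up to 8000 and -0.64 above 8000 bases. In the shortest class SNHG6, of 648 bases, differed by 0.65 and SNHG8, of 672 bases, by 0.27. GAS5, of 1698 bases, differed by 0.47 and NEAT1, of 22743 bases, by -0.95, whereas MALAT1, of 8708 bases, differed by -2.65 and SNHG15, of 3116 bases, by 0.54. In shp16 1 the class medians lay between -0.11 and 0.13. The part of gene length in the results was not tested beyond a fit with each library's length trend removed, given below where it changes a call.

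**Figure D3:**
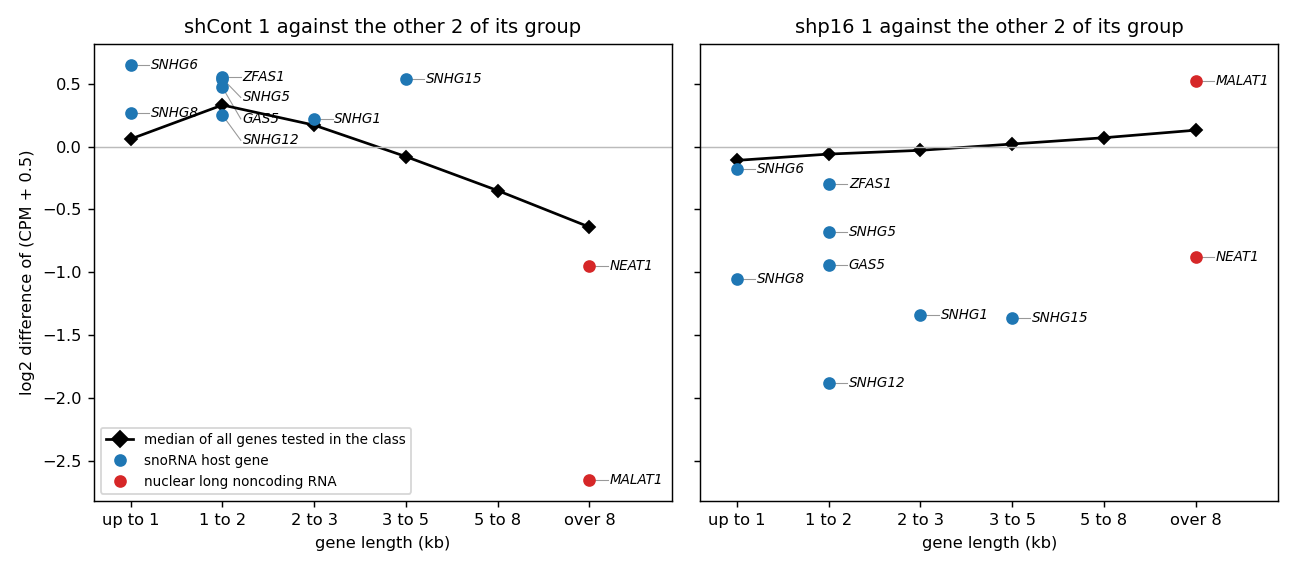
Difference of shCont 1 (left) and shp16 1 (right) from the mean of the other 2 libraries of the group on the log2(CPM + 0.5) scale against gene length in kb: black diamonds are medians over all genes tested in a length class, blue points the 8 hosts and red points NEAT1 and MALAT1. In shCont 1 the class medians fall to -0.64 above 8 kb and MALAT1 lies far below them; in shp16 1 they stay between -0.11 and 0.13 while the hosts reach -1.88 (SNHG12).

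Knockdown of p16 was compared with the control first. ZFAS1 was lower in shp16, at 114 ± 14.3 against 183 ± 42.6 CPM (SD, n = 3), and was the only 1 of the 10 genes to pass an adjusted p of 0.05 (log2 fold change -0.68 ± 0.157, SE, adjusted p = 0.0147 by edgeR's quasi-likelihood test with Benjamini-Hochberg adjustment over 15776 genes). This is 1 of 10 genes where 14.8% of all genes tested were called. The same test gave SNHG5 -0.65 ± 0.205 with an adjusted p of 0.0530 and GAS5 -0.55 ± 0.228 with an adjusted p of 0.130. All 8 hosts had fold changes below 0, with a median of -0.51 against -0.02 for all genes. NEAT1 was at 0.06 ± 0.279 (adjusted p = 0.916) and MALAT1 at 0.29 ± 0.480 (adjusted p = 0.738).

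The groups did not overlap for 3 of the 10 genes, GAS5, SNHG5 and ZFAS1, while 33.6% of all genes tested had groups that did not overlap. Without shCont 1 and shp16 1 the hosts' median was -0.09, and SNHG1, SNHG12 and SNHG15 had fold changes above 0, of 0.03, 0.15 and 0.04. ZFAS1 remained lower (-0.38 ± 0.0636, adjusted p = 0.00016), and MALAT1, which had been above 0, was lower (-0.38 ± 0.0967, adjusted p = 0.00471), so that 2 of 10 genes were called where 32.7% of 16104 genes were. ZFAS1 missed the threshold in the fit of the shCont and shp16 libraries alone (adjusted p = 0.0526) and in the fit without shp16 1 (adjusted p = 0.0633), with fold changes of -0.68 and -0.58. SNHG5 passed with the length trend removed (-0.56 ± 0.162, adjusted p = 0.0297).

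Next, the ATR hairpin was compared on the background of the p16 hairpin. None of the 10 genes passed in edgeR's fit of 9 libraries, where 6.22% of all genes did, DESeq2 also called none, and 1 (NEAT1) had an unadjusted p under 0.05. NEAT1 was 1379 ± 74.6 in shp16+shATR against 887 ± 306 CPM in shp16 (SD, n = 3, log2 fold change 0.64 ± 0.280, SE, adjusted p = 0.230), and MALAT1 1292 ± 140 against 825 ± 196 (0.65 ± 0.481, adjusted p = 0.512). These were also the 2 genes whose groups did not overlap, while 37.7% of all genes tested had groups that did not. The 8 hosts had fold changes between -0.15 (SNHG1) and 0.25 (SNHG12), with a median of -0.04 against 0.00 for all genes, and 3 of them were above 0.

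Leaving out shCont 1, which is in neither group but enters the estimate of the spread, brought NEAT1 and MALAT1 past the threshold with the same fold changes, 0.64 and 0.65. In that fit 3223 of 16184 genes were called. Without shCont 1 and shp16 1, 5 of the 10 genes were called, beside 26.7% of all genes. NEAT1 was higher (0.39 ± 0.0959, adjusted p = 0.00466) and MALAT1 was higher (0.83 ± 0.0902, adjusted p = 1.32e-06). GAS5 (-0.37 ± 0.0771, adjusted p = 0.00132), SNHG1 (-0.48 ± 0.126, adjusted p = 0.00774) and SNHG15 (-0.45 ± 0.104, adjusted p = 0.00281) were lower, and the hosts' median was -0.17, with all 8 below 0. Values for ZFAS1 (-0.13, adjusted p = 0.114), SNHG6 (-0.12, adjusted p = 0.269), SNHG8 (-0.18, adjusted p = 0.344), SNHG12 (-0.16, adjusted p = 0.587) and SNHG5 (-0.06, adjusted p = 0.697) did not pass. The hosts' fold changes in this comparison depended on shp16 1, in which they were low, and their calls on shCont 1 as well, since none of the 10 genes was called without shp16 1 alone.

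Finally, cells with both hairpins were compared with the control. ZFAS1 was lower, at 112 ± 6.35 against 183 ± 42.6 CPM (SD, n = 3, log2 fold change -0.71 ± 0.157, SE, adjusted p = 0.00717 by edgeR), and it passed in each of the 21 alternative fits, with fold changes from -0.80 to -0.50. It was the only gene called of the 10, beside 23.6% of all genes. GAS5 had -0.66 ± 0.229 (adjusted p = 0.0555) and passed in 7 of the 21 alternatives. NEAT1 had 0.70 ± 0.281 (adjusted p = 0.0956) and MALAT1 0.93 ± 0.483 (adjusted p = 0.191). The hosts' median was -0.52 against -0.02 for all genes, with all 8 below 0.

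For 8 of the 10 genes, all but SNHG8 and SNHG12, the shp16+shATR and shCont libraries did not overlap, while 41.5% of all genes tested had such groups. With shCont 1 and shp16 1 left out, 7 of 10 genes were called, beside 44.3% of all genes. ZFAS1 (-0.51 ± 0.0578, adjusted p = 8.72e-07), GAS5 (-0.50 ± 0.0769, adjusted p = 3.13e-05), SNHG1 (-0.45 ± 0.127, adjusted p = 0.00719), SNHG15 (-0.42 ± 0.105, adjusted p = 0.00312) and SNHG5 (-0.31 ± 0.0983, adjusted p = 0.0140) were lower. NEAT1 (0.43 ± 0.0961, adjusted p = 0.00116) and MALAT1 (0.45 ± 0.0890, adjusted p = 0.000402) were higher. With the length trend removed GAS5, SNHG5 and ZFAS1 were called, beside 4410 of 15776 genes, and NEAT1 moved to 0.44 ± 0.226 (adjusted p = 0.173). The comparisons with shCont share its libraries and those with shp16 share the shp16 libraries, so their values are not independent of each other.

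**Figure D4:**
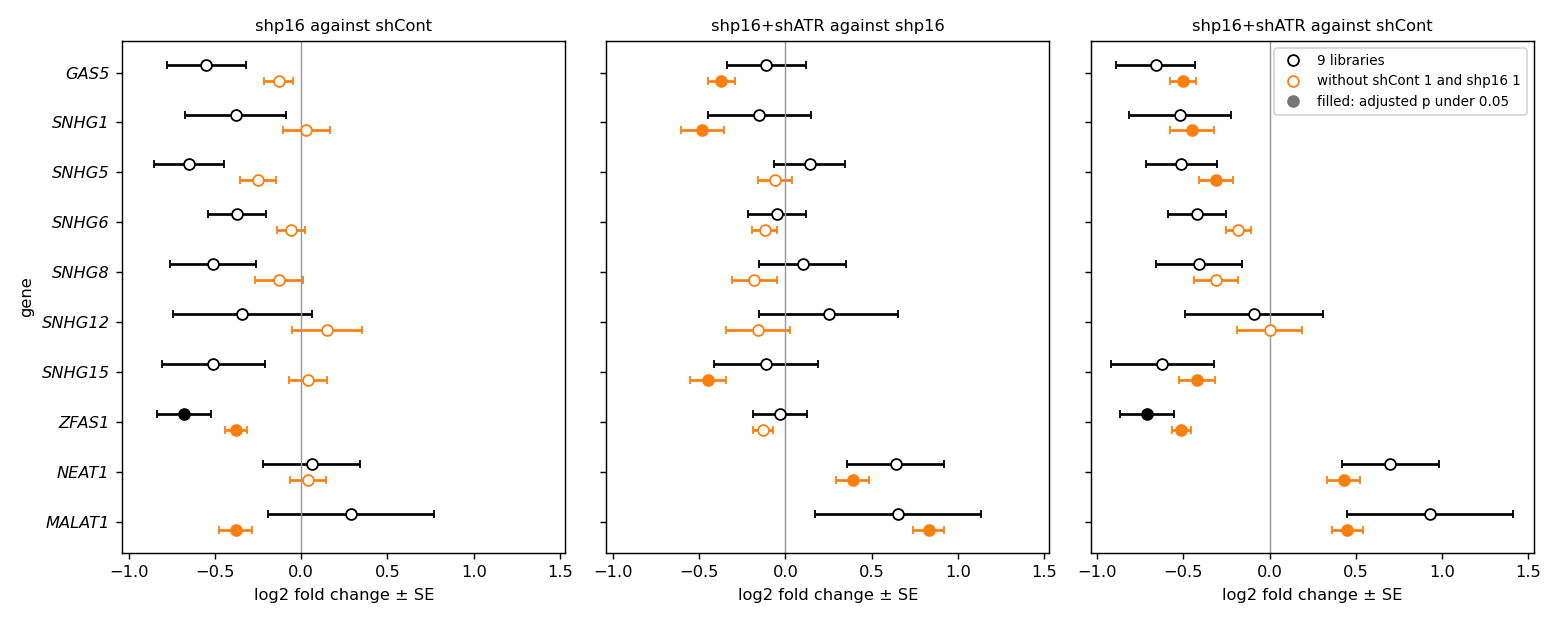
Log2 fold change ± SE (horizontal axes) of the 10 genes in the 3 comparisons, from the fit of 9 libraries (black) and without shCont 1 and shp16 1 (orange); filled points have an adjusted p under 0.05 over all genes tested. ZFAS1 is filled in both comparisons with shCont under both fits, and NEAT1 and MALAT1 are filled on the right of 0 in shp16+shATR against shp16 only in orange.

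Genes that work with these RNAs were followed in lists chosen for their roles. Of all genes tested, edgeR called 14.8% in shp16 against shCont, 6.22% in shp16+shATR against shp16 and 23.6% in shp16+shATR against shCont. Without shCont 1 and shp16 1 these shares were 32.7%, 26.7% and 44.3%. With the length trend removed, 2919, 1420 and 4410 of 15776 genes were called. The list counts below are to be read beside these values, and no list was tested as a set. Of 15 other noncoding snoRNA hosts tested, 1 fell in shp16 against shCont and 2 fell in shp16+shATR against shCont, with medians of -0.14 and -0.21, and none passed in shp16+shATR against shp16 by edgeR or DESeq2 (median 0.03, with 1 gene at an unadjusted p under 0.05). The gene that fell in both was SNHG11, at 5.79 ± 1.51 in shp16 and 6.06 ± 0.862 in shp16+shATR against 9.94 ± 2.56 CPM in shCont (adjusted p = 0.0440 and 0.0448 by edgeR), and the second was SNHG17 (log2 fold change -0.56, adjusted p = 0.0410). Without shCont 1 and shp16 1, SNHG11 did not pass in shp16 against shCont (-0.36 in place of -0.78, adjusted p = 0.113), where 0 of the 15 were then called and the list's median was 0.11, and it passed in shp16+shATR against shCont (-0.49, adjusted p = 0.0139). In that comparison 3 of the 15 then rose and 3 fell, and with the ATR hairpin 1 rose. With the length trend removed, 1 of the 15 rose in shp16+shATR against shp16 (median -0.02). In shp16+shATR against shCont, 2 rose and 2 fell in that fit. Of 32 protein-coding hosts, 2 rose in shp16 against shCont, RCC1 (log2 fold change 0.46, adjusted p = 0.0210), the exchange factor of the GTPase Ran, and DKC1 (0.42, adjusted p = 0.0227), the pseudouridine synthase of box H/ACA particles. RCC1 fell again with the ATR hairpin (-0.43, adjusted p = 0.0480). In shp16+shATR against shCont, 1 protein-coding host rose (DKC1, 0.40) and 1 fell (EEF1B2, -0.56, a subunit of the elongation factor that reloads eEF1A). The medians of this list lay between -0.06 and -0.01. Without the 2 libraries, where 32.7% of all genes were called in shp16 against shCont, 15 of the 32 were called higher and 5 lower there (median 0.12). In shp16+shATR against shp16, beside 26.7% of all genes, 2 were higher and 3 lower (median -0.01). In shp16+shATR against shCont, beside 44.3%, 13 were higher and 6 lower (median 0.12).

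Of the 8 core proteins of snoRNA-protein particles, DKC1 rose and NOP58, a scaffold of box C/D particles, fell in both comparisons with shCont (NOP58 at 131 ± 4.91 in shp16 and 131 ± 1.72 in shp16+shATR against 170 ± 15.9 CPM, adjusted p = 0.0272 and 0.0194). Without the 2 libraries, 5 rose and 1 fell in shp16 against shCont (median 0.26), 4 rose and 2 fell in shp16+shATR against shCont (median 0.21), and 1 fell in shp16+shATR against shp16. With the length trend removed, 1 of the 8 rose and 0 fell in shp16 against shCont, so the fall of NOP58 was not called there. Of 14 factors of nonsense-mediated decay, 2 fell in shp16+shATR against shp16, SMG5 (-0.56, adjusted p = 0.0229), which recruits the decay machinery to phosphorylated UPF1, and the helicase UPF1 itself (-0.43, adjusted p = 0.0225). Against shCont, 2 fell, EIF4A3 of the exon junction complex (-0.60, adjusted p = 0.00302) and UPF1 (-0.40, adjusted p = 0.0106). In shp16 against shCont edgeR called none of this list, with 5 at an unadjusted p under 0.05, and DESeq2 called 1. Without the 2 libraries, 3 of the 14 rose and 4 fell in that comparison, 1 rose and 4 fell in shp16+shATR against shp16, and 4 fell in shp16+shATR against shCont.

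Genes of the proteins that assemble on NEAT1 did not pass in any comparison in edgeR's fit of 9 libraries. By edgeR, by DESeq2 or at an unadjusted p under 0.05, the count was 0 of 14 genes, with medians of 0.16, -0.06 and 0.06. With the length trend removed, 1 of the 14 fell in shp16+shATR against shCont. Without shCont 1 and shp16 1, 3 of these rose and 1 fell in shp16 against shCont, 2 fell in shp16+shATR against shp16, and 2 rose and 2 fell in shp16+shATR against shCont. Of 12 nuclear speckle protein genes, SRSF7 fell in shp16 against shCont (-0.45, adjusted p = 0.0183), RNPS1 fell with the ATR hairpin (-0.37, adjusted p = 0.0444), and both fell in shp16+shATR against shCont. Without the 2 libraries, 1 of the 12 rose and 2 fell in the first comparison, 1 fell in the second and 3 fell in the third. Of 13 other long noncoding RNAs, 2 rose and 1 fell in shp16 against shCont, 1 rose in shp16+shATR against shp16, and 5 rose and 2 fell in shp16+shATR against shCont. Without the 2 libraries these counts were 3 and 1, 5 and 1, and 6 and 2. With the length trend removed, 3 rose and 1 fell in the first comparison and 2 rose in the second. H19, an imprinted RNA of fetal tissues that is also the precursor of a miRNA, was the gene that rose with the ATR hairpin in edgeR's fit of 9 libraries. It was named after its values were seen because its mean CPM of 4.03 is under the minimum set for names. It had 1.5, 0.925 and 0.899 CPM in shCont, 1.92, 1.90 and 1.66 in shp16, and 8.59, 8.70 and 10.2 in shp16+shATR (log2 fold change 2.32 against shp16, adjusted p = 0.000235). KCNQ1OT1, the imprinted antisense RNA of the KCNQ1 locus, rose in both comparisons with shCont (0.97 and 0.98, adjusted p = 0.0378 and 0.0254), and so did OIP5-AS1 (0.63 and 0.78, adjusted p = 0.00587 and 0.000936). H19, NORAD and MIAT were the other risers in shp16+shATR against shCont, also named after their values were seen, and MIAT (0.95, adjusted p = 0.0431) did not pass without shCont 1 and shp16 1 (0.77, adjusted p = 0.0527). CYTOR fell in both comparisons with shCont (-0.78 and -0.75, adjusted p = 0.00666 and 0.00501), and PVT1 fell in the second, named after its values were seen. Of 5 RNAs that lack a poly(A) tail, SCARNA2, a guide RNA of Cajal bodies, rose in shp16+shATR against shCont, with and without the 2 libraries. It was named after its values were seen, since its mean was 1.39 CPM over all libraries, and the list's median there was 0.61 and in shp16 against shCont 0.97. Of the list genes named here, SNHG11 in shp16 against shCont and MIAT were the only ones whose call was lost without the 2 libraries. The part of RNA selection in the results was not tested.

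Several of the 10 genes share sequence with a gene on the other strand, and whether reads were counted by strand is not given in the sources used here. GAS5 overlaps ZBTB37 by 801 bases, ZFAS1 overlaps ZNFX1 by 249, SNHG6 overlaps MCMDC2 by 365, GAS5 overlaps GAS5-AS1 by 42 and SNHG12 overlaps TRNAU1AP by 2. MALAT1 overlaps AP000769.7 by 396 bases, a gene that had 0 counts in every library and was not tested. The starts of SNHG1 and SLC3A2 are 132 bases apart without overlap. None of these neighbours passed an adjusted p of 0.05 in any comparison with 9 libraries. Without shCont 1 and shp16 1, MCMDC2 was lower in shp16 than in shCont (-0.87, adjusted p = 0.0130), TRNAU1AP was higher there (0.44, adjusted p = 0.000943) and lower in shp16+shATR than in shp16 (-0.25, adjusted p = 0.0267), and SLC3A2 was lower in shp16+shATR than in shp16 (-0.15, adjusted p = 0.0404). ZBTB37 had at most 7.57 CPM and GAS5-AS1 at most 1.08, far below GAS5.

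ZNFX1, an interferon-responsive helicase gene, had 146, 196 and 220 CPM in shCont, 182, 151 and 158 in shp16, and 204, 189 and 196 in shp16+shATR. In shp16+shATR against shCont its fold change was 0.07 (adjusted p = 0.771) where that of ZFAS1 was -0.71. Without shCont 1 and shp16 1, ZNFX1 was lower in shp16 than in shCont (-0.43, adjusted p = 4.40e-05) and higher in shp16+shATR than in shp16 (0.33, adjusted p = 0.000265). SLC3A2, the heavy chain of amino acid transporters, had 526 CPM in shCont 1 and 285 in shp16 1, the highest and the lowest of its 9 values, as SNHG1 had. For SNHG12 the partner TRNAU1AP had 25.8 CPM in shp16 1, within the range of the other libraries, where SNHG12 had 6.18.

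Likeness over the 9 libraries was measured as the root mean square difference of log2(CPM + 0.5) after centring each gene on its mean. The 9 include shCont 1, where MALAT1 differed from the rest of its group by -2.65, and shp16 1, where GAS5 differed by -0.94. The part of these 2 libraries in the likeness was not tested. Of the 10, GAS5 and SNHG15 were within 0.14 of each other, as were SNHG5 and SNHG8, and ZFAS1 was within 0.15 of SNHG5. MALAT1 was farthest from each of the 8 hosts, by 1.17 to 1.29, and its nearest neighbour of the 10 was NEAT1 at 0.68. NEAT1 itself was nearest to a host, SNHG8 at 0.61, and farthest from another, ZFAS1 at 0.75. Among 10736 genes with a mean of at least 5 CPM, those most like GAS5 were SLC4A11 (0.064), GGH (0.075), ANKZF1 (0.098), ARSA (0.098) and HLA-DPA1 (0.104), against a median of 0.46 over all genes compared. For NEAT1 they were LA16c-390E6.4 (0.194), TP53INP1 (0.225), STARD4 (0.227), MBTD1 (0.228) and C3orf52 (0.234), and for MALAT1 HSD3BP5 (0.263), ZDHHC20 (0.305), KIAA0754 (0.315), POTEF (0.326) and SGK196 (0.357), with medians of 0.56 and 0.96. HSD3BP5 and POTEF have near-identical copies in the genome, so their counts are uncertain.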

How the data were processed

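RNA of 9 SKMEL28 libraries, 3 per group, was sequenced by Novogene after a NEBNext kit, and whether poly(A) RNA was selected is not given in the sources used here. The submitters' processing notes list STAR 2.6.1, DESeq2 and GRCh38, whereas gene coordinates in the deposited tables match GRCh37. The authors deposited raw read counts per gene for 48162 genes, and FPKM, which are the counts divided by gene length and library total to within a relative difference of 4.22e-07. That length equals the longest GENCODE v29 transcript for 83.3% of 45341 genes. The 3 count columns of shp16+shATR share 1 name and were matched to replicates 1, 2 and 3 (a, b and c) by their FPKM.

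Counts were normalized by TMM, filtered by filterByExpr (15776 genes) and tested with edgeR 4.0.16 (R 4.3.3), glmQLFTest, in 1 model of the 3 groups. An adjusted p (Benjamini-Hochberg over all genes tested) under 0.05 is called. SE are of the log2 fold change, and for edgeR were derived as its absolute value divided by the square root of the test's F statistic. The biological coefficient of variation was 0.149, and 0.0553 without shCont 1 and shp16 1. No pair of libraries of the same group agreed within sampling noise, and pairs from different groups were not compared. In simulated counts for shp16 against shCont, over 15433 genes, 129 of 200 genes changed 2-fold were recovered with 6 other calls. The simulated libraries were drawn independently, without any that stood apart or any length trend. The number of other calls therefore does not carry over to these data. A 2-fold change is also larger than that of any host. Alternatives were DESeq2 1.42.0, upper-quartile factors, library size only, other count filters, the groups compared alone, a replicate block, limma 3.58.1 on log2(FPKM + 1) or log2(FPKM + 0.1), an adjusted p of 0.01, each library left out and shp16 replicates 2 and 3 summed. The fits without both libraries and with each library's length trend removed (a spline of 5 degrees of freedom) were chosen after seeing the data.

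The genes and lists were chosen with earlier results of these data known. Named are the 10 genes, CDKN2A and ATR, the 2 genes of each list with the largest change among those called with a mean of at least 5 CPM in a comparison, neighbours that overlap or start within 2000 bases, and the 5 genes most like GAS5, NEAT1 and MALAT1. Genes named outside this rule, after their values were seen, are H19, NORAD, MIAT, PVT1 and SCARNA2. Marker genes and their lists are given as counts.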

Additional observations from a re-analysis of the deposited data

How the results depend on the processing

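In shp16 against shCont the number of the 10 genes called, 1 with all libraries, was 2 with DESeq2, upper-quartile factors, the length trend removed or both libraries that stand apart left out, 5 without the filter on low counts, and 0 in the fit of only the groups compared or at an adjusted p of 0.01. In shp16+shATR against shp16 it was 0, and 2 without the filter, 1 with only the groups compared and 5 without both libraries. In shp16+shATR against shCont it was 1, and 3 with DESeq2, with only the groups compared or with the length trend removed, 8 without the filter and 7 without both libraries. Leaving out each library in turn gave 0 to 2, 0 to 2 and 1 to 5 called genes in the 3 comparisons. In the first comparison the count was 2 without shCont 3, beside 2316 of 16204 genes, and 0 without shp16 1, beside 1455 of 16251. In the second it was 2 without shCont 1, beside 3223 of 16184. In the third it was 2 without shCont 2 (3081 of 16205), 4 without shCont 3 (3652 of 16204) and 5 without shp16 1 (3935 of 16251). Over all 15776 genes tested, 2339, 981 and 3724 were called in the 3 comparisons, and 1186 to 5264, 292 to 4304 and 2354 to 7130 genes under the alternatives. With DESeq2 these calls were 2932, 1508 and 4182 of 15776 genes, and with the length trend removed 2919, 1420 and 4410. Upper-quartile factors gave 2397 in the first comparison. Without the filter the calls were 3008, 1329 and 4275 of 30291, and without both libraries 5264, 4304 and 7130 of 16104. With only the groups compared they were 1186 of 15153, 2878 of 15209 and 3012 of 15272. The median log2 fold change of the 10 genes in shp16 against shCont moved from -0.44 to -0.09 without both libraries, and no other median moved by more than 0.336, its SD between libraries.

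Replicate numbers did not pair the libraries (correlations of same-numbered deviations from -0.30 to 0.27). With the number as a replicate block, 2 genes, ZFAS1 and NEAT1, were called in shp16+shATR against shCont, and the other 2 comparisons kept 1 and 0.

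Single genes changed direction under some alternatives. In shp16 against shCont, without both libraries, SNHG1 had 0.03, SNHG12 0.15, SNHG15 0.04 and MALAT1 -0.38, and NEAT1 had -0.08 with shp16 replicates 2 and 3 summed and -0.19 with the length trend removed. With each library left out in turn, SNHG12 ranged from -0.65 to 0.07, NEAT1 from -0.21 to 0.34 and MALAT1 from -0.19 to 0.70. In shp16+shATR against shp16, without both libraries, SNHG5 had -0.06, SNHG8 -0.18 and SNHG12 -0.16, with shp16 replicates 2 and 3 summed GAS5 had 0.03, SNHG1 0.04, SNHG15 0.07 and ZFAS1 0.02, SNHG15 had 0.02 by limma on log2(FPKM + 0.1) and ZFAS1 0.01 with upper-quartile factors. Ranges there over the fits that leave out 1 library were -0.37 to 0.03 for GAS5, -0.48 to 0.05 for SNHG1, -0.06 to 0.25 for SNHG5, -0.11 to 0.00 for SNHG6, -0.18 to 0.27 for SNHG8, -0.16 to 0.56 for SNHG12, -0.45 to 0.11 for SNHG15 and -0.13 to 0.05 for ZFAS1, and SNHG12 in shp16+shATR against shCont ranged from -0.35 to 0.15. The causes were not tested. Of 630 alternative values of single genes, 548 kept their direction and their side of the threshold.

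The libraries come from 1 experiment, so the variation between infections was not measured. The spread of shCont 1 and shp16 1 bounds what was called, and a difference that missed the threshold does not show equal levels. The deposited counts do not separate isoforms of NEAT1 or spliced from unspliced hosts.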
